A study of Homo sapiens with 7 samples.

Results

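The genes described here encode 36 histone lysine methyltransferases and demethylases, 19 that add and 17 that are classed here as removing methyl groups from histone lysines, with the Polycomb methyltransferases and the H3K27 demethylases left out. They were picked by gene name, and all 36 were found among the 22670 rows that each sample lists. Their levels were followed in human embryonic stem cells (hESCs) that make JMJD3c when doxycycline (Dox) is added. JMJD3c is the HA-tagged, nuclear catalytic domain of the H3K27 demethylase JMJD3, which is encoded by KDM6B. The parental line was SEES-3, an established hESC line. The JMJD3c-hESCs carried a piggyBac construct with a Tet-responsive element and a reverse Tet transactivator, and were selected as stable cells. They were sampled untreated (Day 0) and 1, 2, 3 and 4 days after Dox (1 µg/ml) was added. The mut-hESCs were built in the same way with a point mutant that has no catalytic activity, and were sampled untreated and at Day 4 of Dox. All 7 samples were grown without feeder cells in medium that keeps hESCs undifferentiated. How many clones each line represents is not given in the sources used here.

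Methylation of histone H3 marks chromatin by position. H3K4 methylation lies at active promoters and enhancers, H3K9 methylation packs silent heterochromatin, and H3K36 and H3K79 methylation follow transcribed gene bodies. The writers carry a SET domain, apart from DOT1L, and take the methyl group from S-adenosylmethionine. The erasers are either flavin-dependent amine oxidases (KDM1A and KDM1B) or JmjC enzymes that use iron, oxygen and 2-oxoglutarate, as JMJD3 itself does. In pluripotent cells KDM1A and KDM4C are known for roles in self-renewal, and the H3K9 methyltransferases as a barrier to reprogramming.

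Each condition had 1 library, so the differences below cannot be checked against replicates and carry no p-value. Values are FPKM (mapped fragments scaled by transcript length and library size), a scale per length on which levels of different genes can be compared. Beside them stands Cufflinks's 95% interval, which covers the estimate within 1 library and not the spread between cultures. A member is said to have risen at a ratio above 2 with over 4 FPKM in the first-named sample, and to have fallen at a ratio below 0.5 with over 4 FPKM in the reference. Intervals are called apart where they do not overlap. Depth, estimated from the spacing of the lowest values, lay between 3520000 reads (Day 0) and 7250000 reads (untreated mut-hESCs). KDM6B, whose level would include reads of the transgene, was at 3.45 FPKM at Day 0, at 158 to 282 FPKM on Dox, and at 2.40 and 454 FPKM in the mut-hESCs without and with Dox. All 8 pluripotency markers were above 1 FPKM in each library, and their summed level was 2436 FPKM at Day 0, 1771 FPKM at Day 4, and 2245 and 1968 FPKM in the untreated and Dox-treated mut-hESCs. The sum of 8 mesendoderm markers was 5.49, 16.5, 94.1, 195 and 309 FPKM from Day 0 to Day 4, with 5 of the 8 listed at 0 at Day 0 and none from Day 2 onward, and was 11.1 and 7.86 FPKM in the mut-hESCs. The 7 fibroblast markers summed to 93.6 to 168 FPKM, mostly THY1, with DCN and LUM at 0 in all libraries. The 5 neural markers summed to 238 to 337 FPKM, and NEUROD1 was listed at 0 in 6 of the 7. The pluripotency and mesendoderm sums move with the days of Dox, and the part of these cells in the results below was not tested. In such bulk RNA, fewer cells of a type and less RNA per cell cannot be told apart.

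Most of the family was well expressed in hESCs. Of the 36 members, 31 were above 4 FPKM in all 7 samples, 8 had a mean above 30 FPKM, 13 a mean between 10 and 30 FPKM and 15 a mean below 10 FPKM. KDM1A, the H3K4 demethylase of the CoREST complex, led with a mean of 132 FPKM, ahead of KDM5B (52.98 FPKM), KDM2B (49.7 FPKM) and KDM3B (38.9 FPKM). WHSC1, EHMT1, EHMT2 and SUV39H2 followed at means of 34.8, 34.0, 33.9 and 30.6 FPKM, and from KDM5B on, neighbours in this order have overlapping ranges over the 7 samples. The lowest were KDM1B, SETD7, ASH1L and SETDB2, with means between 3.33 and 3.84 FPKM, and KDM4D at 0.971 FPKM. For 25 members the highest of the 7 samples was less than 2 times the lowest. The median half-width of the interval was 30.9% of the value at Day 0 and 27.5% at Day 4, and ran from 8.77% to 109% at Day 4, so that the smaller differences could not be resolved in these libraries.

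**Figure D1:**
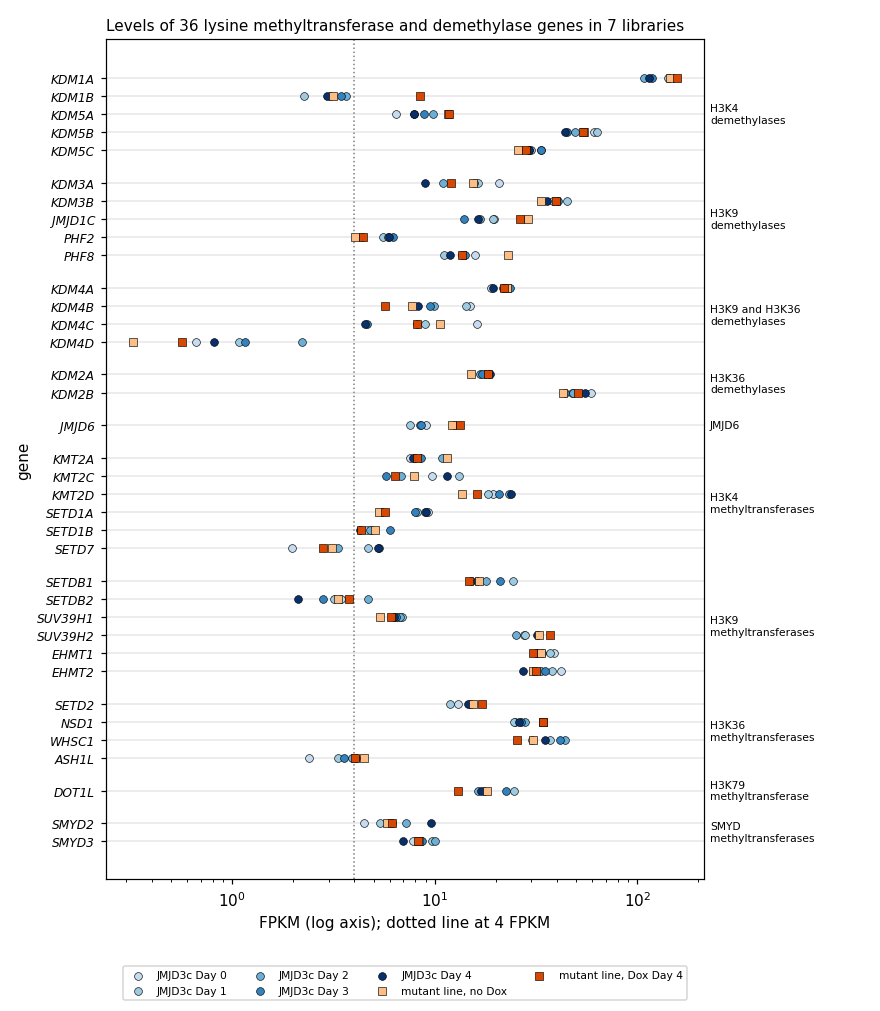
Level of each of the 36 genes (rows, grouped by the residue acted on) in the 7 libraries on a log axis in FPKM, with circles for JMJD3c-hESCs from Day 0 (light) to Day 4 (dark) and squares for the mut-hESCs without (light) and with Dox (dark). KDM1A lies furthest right, at a mean of 132 FPKM, KDM4D lies below the dotted line at 4 FPKM in every library, and the points of most genes sit close together.

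After 4 days of JMJD3c, 4 members passed the cutoffs. KDM4C and KDM3A, both H3K9 demethylases, fell to 0.279 and 0.428 of their Day 0 level, and the methyltransferases SETD7 and SMYD2 rose 2.68-fold and 2.15-fold. Of the 33 members above 4 FPKM in either sample, the 2 that rose are 6.06%, against 5.87% of all 10247 genes tested, and the 2 that fell are 6.06%, against 7.56%. The members were thus called about as often as genes at large. Intervals were apart and lower at Day 4 for 5 members (15.2% of the 33, against 7.00% of all genes), namely KDM5B, KDM3A, KDM4B, KDM4C and EHMT2. They were apart and higher for 0 members, against 5.15% of all genes. Both risers had overlapping intervals, and both fallers had intervals apart.

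Taken in either direction, 17 members were higher and 19 lower at Day 4 than at Day 0. Among the demethylases 6 of 17 were higher, with a median log2 ratio (pseudocount of 1 FPKM) of -0.11. Among the methyltransferases 11 of 19 were higher, with a median of 0.07. Under the other 2 scalings of the libraries these medians were -0.05 and -0.02 for the demethylases and 0.13 and 0.16 for the methyltransferases. The median over all members was -0.04, beside -0.06 for all genes. Untreated mut-hESCs against Day 0 also had a lower median for demethylases (-0.16) than for methyltransferases (0.08). Day 4 against the untreated mut-hESCs had medians of -0.07 and -0.08, and against the Dox-treated ones -0.16 and 0.05. The split was thus present between the untreated lines and absent when Day 4 was set against untreated mut-hESCs.

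**Figure D2:**
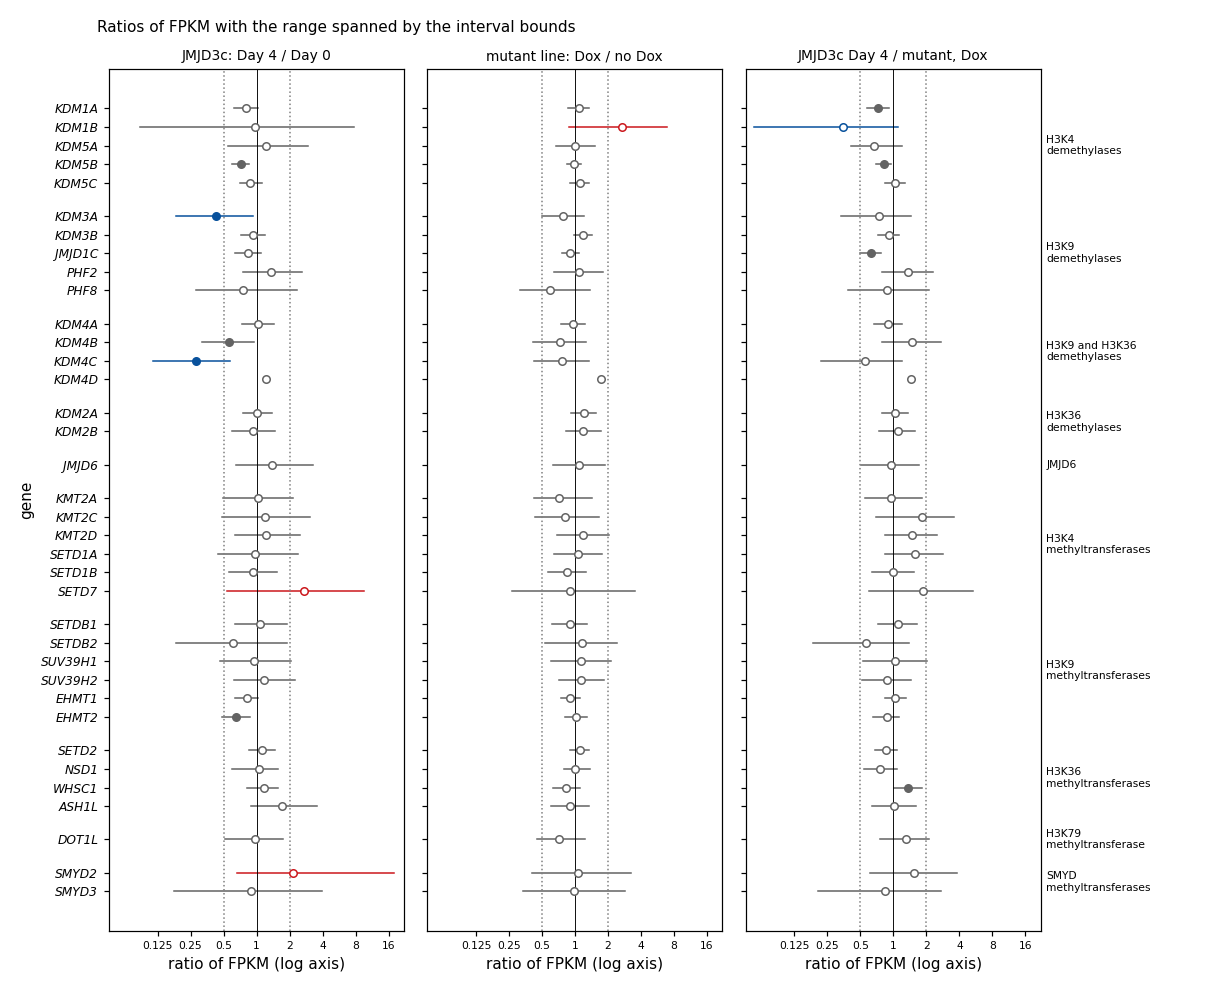
Ratio of FPKM (log axis) for the 36 genes at Day 4 against Day 0, with Dox against without in the mut-hESCs, and at Day 4 against Dox-treated mut-hESCs, with lines for the range that the 95% bounds allow (none for KDM4D, whose lower bound is 0). Dotted lines mark ratios of 0.5 and 2, blue and red mark genes that fell or rose past the cutoffs, and filled circles mark intervals apart. In the left panel KDM4C at 0.279 and KDM3A at 0.428 lie left of the lower line, and the lines of SETD7 and SMYD2 cross 1.

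The KDM4 family, classed here as acting on H3K9 and H3K36, held the member that fell furthest. KDM4C (ENSG00000107077, hg19 chr9:6720863-7175648) was at 16.2 FPKM (95% interval 11.7 to 20.7) at Day 0 and at 8.91, 8.14, 4.62 and 4.52 FPKM at Days 1, 2, 3 and 4. It was at 10.6 FPKM in untreated mut-hESCs and at 8.14 FPKM in Dox-treated mut-hESCs. The level was thus lower from Day 1, lower again from Day 3, and at Days 3 and 4 below every sample outside those days. The Day 4 interval (2.33 to 6.74) lay under those of Day 0 and of the untreated mut-hESCs (8.03 to 13.2), and the bounds allow a ratio to Day 0 of 0.113 to 0.578. Against the Dox-treated mut-hESCs the ratio was 0.555, with overlapping intervals. KDM4C is also one of the genes the study itself named from these libraries, so its direction here is no independent evidence.

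KDM4B, a close relative with the same substrates, is named here after its values were seen. It was at 14.9, 14.3, 9.92, 9.47 and 8.28 FPKM from Day 0 to Day 4, and at 7.71 and 5.65 FPKM in the mut-hESCs without and with Dox. Its ratio of 0.557 at Day 4 stayed inside the cutoffs, with intervals apart. The untreated mut-hESCs, with no active JMJD3c, were as low as Day 4 (ratio of Day 4 to them 1.07). KDM4A, the highest of the family, was at 18.9, 21.8, 21.9, 23.5 and 19.4 FPKM over the 5 days and at 22.8 and 21.8 FPKM in the mut-hESCs, with overlapping intervals at Days 0 and 4. KDM4D was at 0.665, 1.08, 2.20, 1.15 and 0.809 FPKM, and at 0.323 and 0.562 FPKM in the mut-hESCs, too low to compare, and shares near-identical sequence with related genes, which makes its estimate uncertain.

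KDM3A and KDM4B are known as genes induced by low oxygen. Sequences upstream of a listed start are shown for the members that fell or were lower (KDM4C, KDM3A and KDM4B), and for KDM4A for contrast. The core of the hypoxia-response element can be looked for in them. They are the 250 bases before a RefSeq start on GRCh38.p14, a build other than that of the expression values. Positions were not converted between the builds. The KDM4C window is numbered inside the hg19 span given above for that gene, so it may belong to an internal start and not to the start of the measured gene. Capitals mark the core, ACGTG or GCGTG on either strand. CACGTG, the E-box, holds ACGTG on both strands and counts under both.
KDM4C, chr9:6757723-6757972, plus strand: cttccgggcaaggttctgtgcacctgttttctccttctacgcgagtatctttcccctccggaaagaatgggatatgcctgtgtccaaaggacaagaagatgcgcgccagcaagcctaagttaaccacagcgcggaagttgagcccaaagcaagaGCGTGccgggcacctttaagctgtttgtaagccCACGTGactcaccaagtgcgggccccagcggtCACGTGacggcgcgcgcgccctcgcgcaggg
KDM3A, chr2:86441121-86441370, plus strand: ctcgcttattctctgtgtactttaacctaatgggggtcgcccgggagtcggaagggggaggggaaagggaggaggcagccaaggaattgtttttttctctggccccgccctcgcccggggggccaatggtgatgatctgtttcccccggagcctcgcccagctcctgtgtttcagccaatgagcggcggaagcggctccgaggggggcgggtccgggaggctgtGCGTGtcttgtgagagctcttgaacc
KDM4B, chr19:4968863-4969112, plus strand: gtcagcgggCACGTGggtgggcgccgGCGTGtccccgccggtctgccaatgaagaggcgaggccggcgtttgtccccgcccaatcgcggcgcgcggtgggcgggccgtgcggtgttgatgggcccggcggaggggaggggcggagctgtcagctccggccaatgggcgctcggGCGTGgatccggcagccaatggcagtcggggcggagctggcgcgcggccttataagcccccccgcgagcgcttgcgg
KDM4A, chr1:43649899-43650148, plus strand: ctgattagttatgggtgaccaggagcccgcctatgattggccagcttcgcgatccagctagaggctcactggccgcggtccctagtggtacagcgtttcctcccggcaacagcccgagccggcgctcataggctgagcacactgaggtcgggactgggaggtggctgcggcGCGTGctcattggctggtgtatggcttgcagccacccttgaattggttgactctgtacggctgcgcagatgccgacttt
KDM4C and KDM4B each hold 3 separate capital runs, and KDM3A and KDM4A 1 each. The palindrome CACGTG occurs 2 times in the KDM4C window, 1 time in that of KDM4B and in neither of the others. The core was found in 43.1% of 27305 such windows over all genes and in 22 of 33 member windows (66.7%), and CACGTG in 6.49% and in 6 of 33 (18.2%). The octamer ATGCAAAT, bound by POU5F1, was in none of the 4 windows, in 1.66% of all windows and in 1 of the 33. These are matches of letters only, and the shares were not matched for base composition. Of the 4 windows, KDM4C had the lowest share of G and C (59.2%) and KDM4B the highest (75.6%). The difference in share between members and all windows was not tested.

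The other demethylases of H3K9 act mainly on mono- and dimethylation. KDM3A (ENSG00000115548, hg19 chr2:86667770-86719839) was at 20.8 FPKM (14.6 to 27.4) at Day 0 and at 16.3, 10.98, 15.7 and 8.91 FPKM (5.01 to 13.5) at Days 1 to 4. In the mut-hESCs it was at 15.5 FPKM without and 12.0 FPKM with Dox. Day 4 was the lowest of the 7 samples, Day 3 lay close to Day 1, and the bounds allow a ratio of 0.183 to 0.924. Day 4 was 0.576 of the untreated mut-hESCs and 0.740 of the Dox-treated ones, with overlapping intervals in both cases. KDM3B, its paralog and the highest of this class, was at 38.5, 45.1, 39.9, 40.3 and 35.7 FPKM and at 33.5 and 39.5 FPKM in the mut-hESCs, with a Day 4 to Day 0 ratio of 0.928 and overlapping intervals.

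JMJD1C, the third relative, whose demethylase activity is debated, is named after its values were seen. It was at 19.6, 19.3, 16.7, 13.95 and 16.4 FPKM over the 5 days and at 28.9 and 26.2 FPKM in the mut-hESCs. Both mut-hESC samples were above all 5 JMJD3c-hESC samples, and the intervals of the untreated lines were apart. PHF2, a PHD finger protein that binds H3K4 trimethylation, was at 4.36, 5.55, 5.85, 6.24 and 5.93 FPKM and at 4.01 and 4.39 FPKM in the mut-hESCs, the largest increase of the class but within its intervals. PHF8, which acts on H3K9 and H4K20, ranged from 11.1 to 23.0 FPKM, with the untreated mut-hESCs highest.

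The H3K4 demethylases did not pass the cutoffs at Day 4 against Day 0, but KDM5B was lower than Day 0 by its intervals. KDM1A at Day 4 was lower than the mut-hESCs by its intervals. KDM1A (ENSG00000004487, hg19 chr1:23345941-23410182) was at 143 and 141 FPKM at Days 0 and 1, at 108, 118 and 114 FPKM at Days 2, 3 and 4, and at 145 and 156 FPKM in the mut-hESCs. The 3 late days of JMJD3c were thus below the other 4 samples. The Day 4 interval (100 to 128) overlapped that of Day 0 (125 to 161) and lay under those of both mut-hESC samples (129 to 162 and 140 to 174). The ratio was 0.798 to Day 0 and 0.729 to the Dox-treated mut-hESCs.

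KDM5B (ENSG00000117139, hg19 chr1:202696526-202778598), a JmjC demethylase of H3K4 di- and trimethylation, showed the same split of the days. It was at 61.2 and 63.2 FPKM at Days 0 and 1, at 49.0, 45.1 and 43.9 FPKM at Days 2, 3 and 4, and at 54.8 and 53.6 FPKM in the mut-hESCs. The Day 4 interval (40.1 to 47.8) lay under those of Day 0 (55.8 to 66.7) and of both mut-hESC samples (51.0 to 58.6 and 49.8 to 57.6), at a ratio to Day 0 of 0.717. Its paralog KDM5A was at 6.40, 7.88, 9.79, 8.88 and 7.87 FPKM and at 11.6 and 11.7 FPKM in the mut-hESCs, the largest increase of the class at a ratio within its intervals. KDM5C, the X-linked paralog, ranged from 25.7 to 33.5 FPKM. KDM1B, the second amine oxidase, was at 3.05, 2.25, 3.65, 3.45 and 2.93 FPKM in the JMJD3c-hESCs, 3.13 FPKM in untreated and 8.43 FPKM in Dox-treated mut-hESCs, a single high sample among 7.

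The H3K36 demethylases and JMJD6 had overlapping intervals at Days 0 and 4. KDM2B, which recruits variant Polycomb complexes to CpG islands through its zinc finger, was at 59.1, 47.6, 48.1, 43.8 and 55.3 FPKM and at 43.0 and 50.8 FPKM in the mut-hESCs. KDM2A, its paralog, ranged from 15.1 to 18.7 FPKM. JMJD6, a JmjC enzyme better known as a lysyl hydroxylase, was at 9.02, 7.56, 8.45, 8.51 and 12.5 FPKM and at 12.2 and 13.2 FPKM in the mut-hESCs, so Day 4 was above the earlier days and close to the mut-hESCs.

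Among the H3K4 methyltransferases SETD7 passed the cutoffs. SETD7 (ENSG00000145391, hg19 chr4:140417095-140527853), which monomethylates H3K4 and several other proteins, was at 1.96, 4.70, 3.34, 5.27 and 5.26 FPKM from Day 0 to Day 4 and at 3.10 and 2.82 FPKM in the mut-hESCs. Day 0 was the lowest sample, and Days 1, 3 and 4 were the highest. The Day 0 interval (0.863 to 5.54) overlaps that of Day 4 (2.95 to 8.19), and the bounds allow a ratio between 0.533 and 9.50. KMT2D, an enhancer methyltransferase and the highest of this class, was at 19.4, 18.3, 23.2, 20.7 and 23.7 FPKM and at 13.7 and 16.2 FPKM in the mut-hESCs, with overlapping intervals between Day 4 and both untreated samples. SETD1B, a COMPASS catalytic subunit and the member of the class with the lowest ratio, was at 4.64, 4.85, 4.79, 6.01 and 4.27 FPKM and at 5.04 and 4.30 FPKM in the mut-hESCs.

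Of the others, KMT2A, the MLL1 protein that maintains HOX expression, ranged from 7.55 to 11.49 FPKM, KMT2C, an enhancer methyltransferase like KMT2D, from 5.71 to 13.2 FPKM and SETD1A, the paralog of SETD1B, from 5.33 to 9.30 FPKM. KMT2C has near-identical copies elsewhere in the genome, and its estimate is uncertain. All had overlapping intervals at Days 0 and 4.

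The H3K9 methyltransferases held no member past the cutoffs. EHMT2 (ENSG00000204371, hg19 chr6:31847536-31865461), also known as G9a and the main H3K9 dimethyltransferase, was at 41.9, 37.8, 33.3, 34.8 and 27.3 FPKM and at 30.6 and 31.5 FPKM in the mut-hESCs. Day 0 was the highest and Day 4 the lowest sample, with intervals apart (36.1 to 47.7 against 23.2 to 31.5) and a ratio of 0.652. The untreated mut-hESCs also had an interval below that of Day 0, and Day 4 was 0.892 of them. EHMT1, its partner in the same heterodimer and the highest of the class by a small margin, was at 38.8, 37.2, 32.3, 33.9 and 31.6 FPKM and at 33.5 and 30.4 FPKM in the mut-hESCs. Both partners were thus lower at the later days, and EHMT1 within overlapping intervals.

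SUV39H2, which makes H3K9 trimethylation in heterochromatin, was at 27.5, 27.7, 25.1, 32.5 and 31.9 FPKM and at 32.7 and 36.8 FPKM in the mut-hESCs, the largest increase of this class and within its intervals. Its paralog SUV39H1 ranged from 5.36 to 6.88 FPKM. SETDB1, which silences endogenous retroviruses, ranged from 14.8 to 24.3 FPKM with its peak at Day 1, and SETDB2 from 2.11 to 4.70 FPKM. Of the exonic bases of SETDB1, 12.9% are overlapped by CERS2 on the other strand, and whether strand was used in counting is not given.

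The methyltransferases of H3K36 were listed above their Day 0 level at Day 4, none past the cutoffs and all with overlapping intervals. WHSC1, also called NSD2, makes H3K36 dimethylation, and was at 30.2, 37.02, 43.98, 41.4 and 34.8 FPKM and at 30.6 and 25.5 FPKM in the mut-hESCs. It peaked at Days 2 and 3, when its intervals were apart from that of Day 0, and at Day 4 was 1.36 times the Dox-treated mut-hESCs with intervals apart. ASH1L, a Trithorax-group enzyme that acts on H3K36, was at 2.39, 3.32, 3.88, 3.57 and 4.08 FPKM and at 4.48 and 4.02 FPKM in the mut-hESCs. Day 0 was thus its lowest sample, and the Day 4 ratio of 1.71 had overlapping intervals. NSD1, a relative of WHSC1 with the lowest ratio of the class, was at 24.8, 24.5, 28.0, 26.5 and 26.1 FPKM and at 34.3 FPKM in both mut-hESC samples. SETD2, which makes H3K36 trimethylation, ranged from 11.9 to 17.0 FPKM.

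Beyond H3K36, SMYD2 was the second member that rose. SMYD2 (ENSG00000143499, hg19 chr1:214454576-214510474), a SET and MYND domain enzyme that methylates H3K36 and non-histone proteins such as p53, was at 4.46, 5.36, 7.19, 6.13 and 9.57 FPKM and at 5.81 and 6.16 FPKM in the mut-hESCs. Day 4 was the highest of the 7 samples, but the bounds of the ratio run from 0.663 to 18.0. SMYD3, its relative, was at 7.84, 9.68, 10.02, 8.64 and 6.96 FPKM and at 8.33 and 8.23 FPKM in the mut-hESCs. DOT1L, the H3K79 methyltransferase, was at 17.5, 24.5, 16.3, 22.4 and 17.0 FPKM and at 18.1 and 13.01 FPKM in the mut-hESCs and showed no steady direction.

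**Figure D3:**
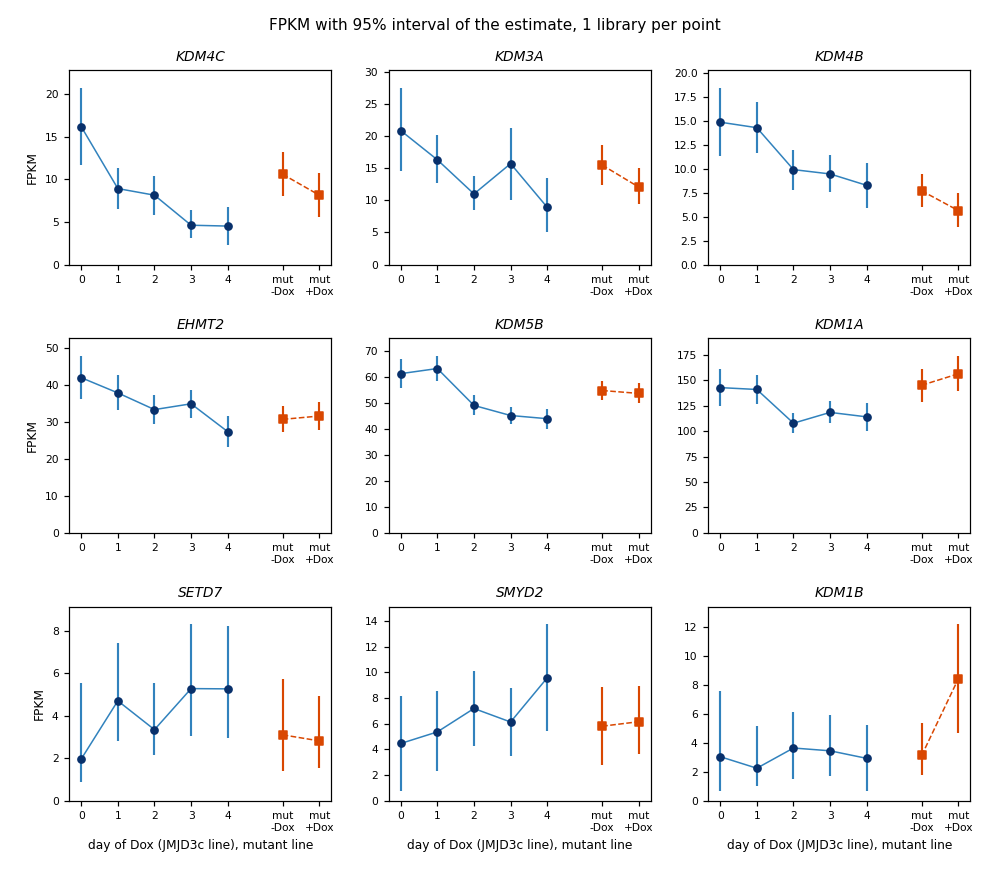
FPKM with its 95% interval (vertical line) of 9 genes at Days 0 to 4 of Dox in JMJD3c-hESCs (blue circles) and in mut-hESCs without and with Dox (orange squares), 1 library per point. KDM4C ends at 4.52 FPKM, KDM1A and KDM5B step down between Days 1 and 2, and KDM1B stands at 8.43 FPKM in the Dox-treated mut-hESCs alone.

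The earlier days show when these differences appeared. At Day 1, SETD7 rose (1 of 32 members, against 3.48% of all genes) and 0 members fell (against 3.27%). At Day 2, 0 members rose and 0 fell (against 3.90% and 4.24%). At Day 3, SETD7 rose (against 4.73%) and KDM4C fell (against 4.48%). Intervals below that of Day 0 were seen for 1 member at Day 1 (KDM4C, against 2.54%), for 4 at Day 2 (KDM1A, KDM5B, KDM3A and KDM4C, against 4.49%) and for 3 at Day 3 (KDM5B, JMJD1C and KDM4C, against 4.34%). Intervals above were seen for WHSC1 only, at Day 2 (against 2.73%) and Day 3 (against 4.45%). Of 34 members above 4 FPKM in any of the 5 samples, 2 were lower at every step (KDM4B and KDM4C, against 3.55% of all genes) and 0 were higher at every step (against 3.32%).

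The mut-hESCs show how the same genes moved on Dox without demethylase activity. KDM1B rose 2.69-fold, 1 of 33 members against 1.25% of all genes, and its intervals (1.76 to 5.35 and 4.70 to 12.2) overlapped. No member fell (against 1.53%), and intervals were apart for 0 members upward (against 1.47%) and 0 downward (against 1.68%). KDM4C and KDM3A had ratios of 0.769 and 0.779 and SETD7 and SMYD2 ratios of 0.908 and 1.06, all with overlapping intervals. The members' median log2 ratio was 0.01, beside 0.00 for all genes.

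The 2 Dox-treated samples differ in the activity of the transgene, but also in the cell line, and the contributions of these cannot be told apart. At Day 4 of active JMJD3c, KDM1B was 0.348 of its level in the Dox-treated mut-hESCs, the one member of 34 past the cutoffs (2.94%, against 3.00% of all genes), with overlapping intervals. No member was past them upward (against 6.56%). Intervals were apart and lower for KDM1A, KDM5B and JMJD1C (8.82% of members, against 8.67%), and apart and higher for WHSC1 (2.94%, against 7.58%). Against the untreated mut-hESCs, KDM4C was past the cutoffs at 0.427 (1 of 33 members, against 3.90%) and 0 members were higher (against 7.05%). SETD7 and SMYD2 were 1.70 and 1.65 times that reference.

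The untreated lines already differed from each other in some members. Between untreated mut-hESCs and Day 0, 0 members passed the cutoffs upward (against 2.78% of all genes) and 0 downward (against 7.01%). Intervals were apart for JMJD1C and ASH1L, higher in the mut-hESCs (6.25% of 32 members, against 6.79%), and for KDM5C, KDM4B and EHMT2, lower in them (9.38%, against 6.93%). Of the 5 members with lower intervals at Day 4 than at Day 0, KDM3A, KDM4B and EHMT2 had Day 4 intervals that overlapped those of the untreated mut-hESCs. KDM5B and KDM4C had Day 4 intervals under those of both untreated samples (2 of 34 members, against 2.98% of all genes), and 0 members had intervals above both (against 3.09%).

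Summed over all classes, the demethylases were lower at Day 4 and the methyltransferases were close to their Day 0 level. Single classes within each group went in both directions. The 17 demethylases summed to 483 FPKM at Day 0 and 396 FPKM at Day 4, and to 457 and 473 FPKM in the mut-hESCs without and with Dox. The 19 methyltransferases summed to 286 and 290 FPKM, and to 286 and 275 FPKM in the mut-hESCs. KDM1A and KDM5B make up much of the first sum. The H3K4 demethylases summed to 247 FPKM at Day 0, 198 FPKM at Day 4, and 240 and 258 FPKM in the mut-hESCs. The 6 H3K4 methyltransferases among the members went from 52.5 to 61.6 FPKM, and from 46.5 to 43.5 FPKM in the mut-hESCs. The ratio of these sums was 4.70 at Day 0, 3.21 at Day 4, 5.17 in untreated and 5.94 in Dox-treated mut-hESCs. KMT2B, another H3K4 methyltransferase, is not a member and not in these sums. Its level was 7.07 and 7.35 FPKM at Days 0 and 4, and 6.20 and 6.64 FPKM in the mut-hESCs.

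The KDM4 family sum was 50.6, 46.1, 42.2, 38.8 and 33.0 FPKM from Day 0 to Day 4 and 41.4 and 36.2 FPKM in the mut-hESCs, so the Dox-treated mut-hESCs lay close to Day 4. The H3K9 demethylases outside that family summed to 99.1 and 78.8 FPKM, and to 105 and 95.7 FPKM in the mut-hESCs. The H3K9 methyltransferases summed to 133 and 115 FPKM at Days 0 and 4, and to 122 and 123 FPKM in the mut-hESCs. Those of H3K36 summed to 70.4 and 79.6 FPKM, and to 84.9 and 80.9 FPKM in the mut-hESCs, while the H3K36 demethylases summed to 77.6 and 74.0 FPKM, and to 58.2 and 69.0 FPKM in the mut-hESCs. These are sums of mRNA levels and say nothing of enzyme activity.

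**Figure D4:**
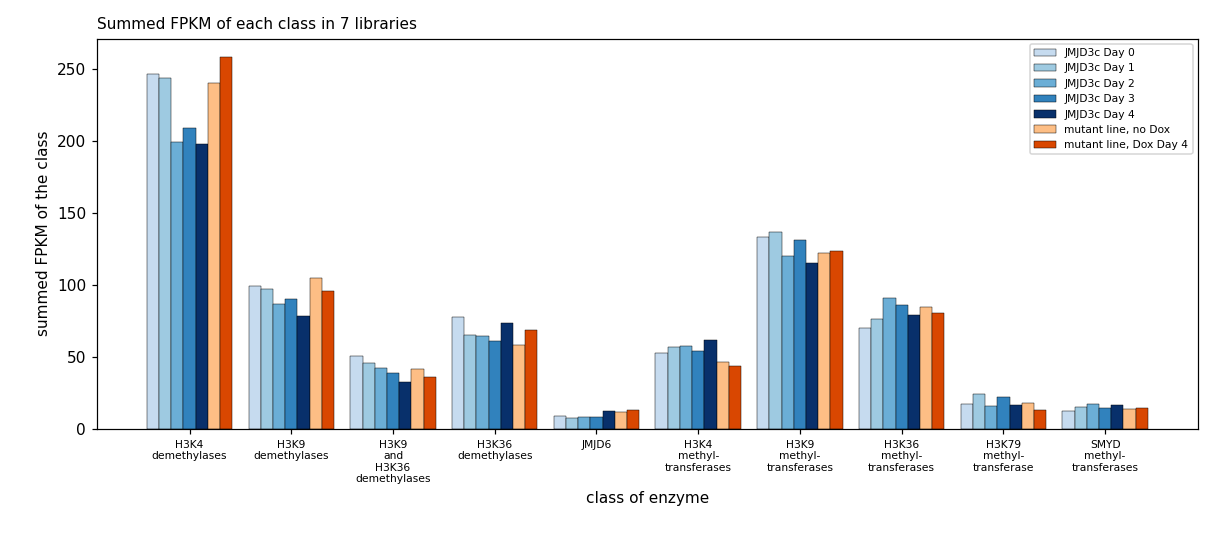
Summed FPKM (linear axis from 0) of the genes of each class in the 7 libraries, in blue for JMJD3c-hESCs from Day 0 (light) to Day 4 (dark) and in orange for mut-hESCs without and with Dox. The H3K4 demethylases go from 247 FPKM at Day 0 to 198 FPKM at Day 4 and stand at 258 FPKM in Dox-treated mut-hESCs, and the KDM4 family is lower at each later day.

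The enzymes work in complexes, and the partner genes were read from lists with the same cutoffs. Of 12 genes listed as LSD1-CoREST partners, among them GLYR1, which is known as a partner of KDM1B, 0 rose and 2 fell at Day 4 against Day 0. The shares of all genes were 5.87% and 7.56%, and the lists that follow are also to be read against them. The median log2 ratio of this list was -0.34 at Day 4, beside -0.06 for all genes, and 0.03, 0.01 and 0.03 at Days 1, 2 and 3. The untreated lines differed too, with a median of -0.16 for untreated mut-hESCs against Day 0. Day 4 had a median of -0.15 against the untreated and -0.28 against the Dox-treated mut-hESCs. RCOR2, the CoREST subunit enriched in pluripotent cells, was at 41.2, 30.6, 26.5, 27.5 and 18.8 FPKM and at 30.5 and 25.6 FPKM in the mut-hESCs, a ratio of 0.456 with intervals apart. PHF21A, the reader of unmethylated H3K4 in the complex, was at 10.9, 8.19, 8.81, 15.97 and 3.55 FPKM and at 9.80 and 8.70 FPKM in the mut-hESCs, with overlapping intervals. RCOR2 was lowest at Day 4 and PHF21A was highest at Day 3 and lowest at Day 4.

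Of 12 MLL/COMPASS subunits 0 rose and 0 fell, with a median of -0.01. Intervals were apart and lower only for DPY30, at 121, 74.1, 83.7, 84.4 and 74.4 FPKM over the days and 84.6 and 86.6 FPKM in the mut-hESCs, so that Day 0 stands above all others. Of the 11 H3K9 and HP1 partners found, 0 rose and 0 fell, with a median of -0.10. Of 12 DOT1L and elongation partners, MLLT3, the crotonyl- and acetyl-lysine reader AF9, rose from 2.41 to 6.51 FPKM with overlapping intervals and 0 fell, with a median of 0.01. MLLT3 was at 3.90 and 3.85 FPKM in the mut-hESCs, between Days 0 and 4. Of the other lysine methyltransferases and demethylases, 22 were found. KDM8 and MINA, both JmjC hydroxylases, rose from 1.93 to 6.03 FPKM and from 6.77 to 14.3 FPKM with overlapping intervals, 0 fell, and the median was 0.02. MINA was at 11.8 and 12.8 FPKM in the mut-hESCs, close to Day 4. KDM8 was at 3.25 and 2.65 FPKM in the mut-hESCs without and with Dox. Its Day 4 level was past the cutoffs above the Dox-treated mut-hESCs, with overlapping intervals.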

How the data were processed

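RNA-seq values of 7 samples were analysed, 1 library per condition. Per the study's methods and the submitters' processing notes, the authors processed single-end MiSeq reads with CASAVA 1.4, mapped them to hg19 with TopHat2 2.0.13 and computed FPKM with Cufflinks 2.1.1. The deposited FPKM values come with lower and upper bounds of a 95% interval. The annotation release, and whether strand was used in counting, are not given in the sources used here. No read counts were used, and depth was estimated from the steps of low FPKM values in 266 genes. Rows were joined on identifier and position. For the 7 members listed more than once, the row with the highest mean was used. The members and gene lists were chosen with earlier results of these data known. Ratios were computed on the deposited values, log2 ratios with a pseudocount of 1 FPKM. The cutoffs, a ratio above 2 or below 0.5 with over 4 FPKM, were those of the study and were applied to all genes above 4 FPKM in either sample. No test was made between conditions, since each had 1 library. Values in all samples are given for members past the cutoffs, for the highest member of each class, and for the largest rise and fall of each class of 3 or more, and other members are given by ranges unless marked. Promoter sequences came from RefSeq (GRCh38.p14) and exon overlaps from GENCODE on GRCh37. Alternatives changed the cutoffs, scaling, pseudocount, repeated rows, use of intervals, reference and day. The calculations used Python 3.11.15, numpy 2.4.6, pandas 2.3.3 and matplotlib 3.10.9. The rule for calling a rise or fall was also run on simulated data. Only large changes in well expressed genes were simulated, so that run does not bear on smaller changes at low levels. One gene of the methyl donor list is not reported here.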

Additional observations from a re-analysis of the deposited data

Results flagged for a closer look

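SETD7 rose in one line and was listed slightly lower in the other. Its ratio was 2.68 with Dox in the JMJD3c-hESCs (Day 4 against Day 0) and 0.908 with Dox in the mut-hESCs, where it was at 3.10 and 2.82 FPKM, below the cutoff of 4 FPKM in both samples, with bounds that allow a ratio of 0.269 to 3.51. No change is called in the mut-hESCs. The difference between the lines was not tested, since each condition has 1 library, and the intervals overlap in both lines.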

How the results depend on the processing

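No paired analysis was possible because no condition has a second library, and for the same reason no replicate could be left out. For Day 4 against Day 0, the 2 members that rose became 0 at a cutoff of 10 FPKM, 0 where intervals must also be apart, 0 against the untreated mut-hESCs and 1 (SETD7) with Day 3 as the treated sample. The 2 that fell became 4 at a fold cutoff of 1.5, 1 against the untreated mut-hESCs and 1 with Day 3 (KDM4C in both). In the mut-hESCs, the 1 member that rose (KDM1B) became 0 at 10 FPKM and 0 with intervals apart, and the 0 that fell became 1 (PHF8) at a fold of 1.5. Between Day 4 and Dox-treated mut-hESCs, the 1 lower member (KDM1B) became 0 at 10 FPKM, 3 at a fold of 1.5 and 0 with intervals apart, and the 0 higher became 4 at a fold of 1.5. These follow from the stricter or looser cutoffs themselves, except for the changes of reference and day, whose cause was not tested. In the other 47 recomputed counts and medians the value moved little, and of the recomputed calls of single genes 19 were kept, 13 were lost and 0 reversed. A pseudocount does not enter the calls, and at 4 FPKM it lowered the log2 ratios of SETD7 and SMYD2 to 0.64 and 0.68 and brought that of KDM3A to -0.94. The members' median at Day 4 against Day 0 was -0.04 and changed sign to 0.01 and 0.04 under the other 2 scalings, so it has no firm direction. The largest shift of all genes under a scaling was 0.101 on the log2 scale, at Day 1. Day 0, the common reference of the course, was the shallowest library, where the half-width of a member's interval reached 133% of its value.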

Other observations

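The enzymes that supply the methyl group and the 2-oxoglutarate used by the members were read with the same cutoffs. Of the 15 found, 0 rose at Day 4 against Day 0 (against 5.87% of all genes). The median log2 ratio was -0.21, beside -0.06 for all genes. At Days 1, 2 and 3 it was -0.07, -0.07 and 0.00, and for untreated mut-hESCs against Day 0 it was -0.075. Day 4 had a median of -0.03 against the untreated and -0.09 against the Dox-treated mut-hESCs. MAT2A, the S-adenosylmethionine synthetase of growing cells, was at 107 FPKM at Day 0 and 141 FPKM at Day 4, and IDH1, a source of 2-oxoglutarate, at 159 and 196 FPKM, both with intervals apart. Both mut-hESC samples were at 144 FPKM for MAT2A, and at 245 and 231 FPKM for IDH1. PHGDH, which opens serine synthesis, was at 252 FPKM at Day 0 and 165 FPKM at Day 4, with the mut-hESCs at 162 and 175 FPKM.

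Of 9 genes of arginine methylation, namely methyltransferases and the PRMT5 partner WDR77, 0 passed the cutoffs at Day 4 against Day 0. PRMT3, which methylates a ribosomal protein, was at 25.5, 17.0, 20.4, 16.8 and 14.2 FPKM and at 28.8 and 34.6 FPKM in the mut-hESCs. Its Day 4 interval (10.9 to 17.5) lay under that of Day 0 (20.3 to 30.7), and Day 4 was past the cutoffs below both mut-hESC samples.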
